A study of Mus musculus with 9 samples.

Results

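The BCL2 family genes were followed in mast cells grown from mouse bone marrow, and 8 of the 10 genes chosen by symbol were measured among 15109 genes. They were 3 genes for proteins that keep cells alive (Bcl2, Bcl2l1 and Mcl1), 3 for sensors of the BH3-only class (Bcl2l11, Bmf and Bid) and both pore-forming effectors (Bax and Bak1). Bcl2a1b and Bcl2a1d, near-identical copies of the A1 survival gene, were not analysed here. Marrow of wild-type C57BL/6 mice was grown for 4 weeks or longer with 20% serum and 30% medium taken from WEHI-3 cultures, which supplies interleukin 3. Control, with 3 libraries, is labelled untreated. BSA, also with 3, is the group loaded with an IgE antibody against dinitrophenyl (anti-DNP-IgE) and then given DNP-BSA, the antigen that crosslinks it on the IgE receptor. Taxinine, the third group of 3, had the same antibody and then taxinine, a taxane diterpenoid of yew, for 1 h before the same antigen. No group with taxinine alone is analysed here, and its dose, its vehicle and the length of the antigen step are not in the labels. The labels also do not say whether Control cells carried the antibody. Changes with antigen against Control are therefore changes with antibody and antigen together, and their parts cannot be told apart. Antigen alone below means the BSA group, which had both without taxinine. The series calls the replicates biological without naming separate animals or cultures, so p-values reflect sample-to-sample spread that may be partly technical.

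Proteins of the BCL2 family decide whether the outer mitochondrial membrane stays intact. BAX and BAK form pores in it that release cytochrome c. BCL2, BCL-XL (from Bcl2l1) and MCL1 hold these effectors in check, and the BH3-only proteins BIM (from Bcl2l11), BMF and BID bind the survival proteins or activate the effectors. Mast cells need interleukin 3 or stem cell factor to survive in culture, and loss of these factors kills them through this pathway. Several of the proteins, MCL1 above all, are short-lived and are also set after transcription, which transcript counts do not show.

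Libraries held 8975371 to 14116976 counts each, and the lowest count of any of the 8 genes in any library was 258. The 15 listed mast cell markers, among them Kit, Fcer1a and Cpa3, summed to 55291 to 56803 CPM in Control, 59582 to 61440 in BSA and 59450 to 60739 in Taxinine, CPM being counts at a common library total of 1000000. Control did not overlap the activated groups in this sum. Macrophage and monocyte markers summed to 74.4 to 77.3 CPM in Control, 89.1 to 97.5 in BSA and 79.6 to 84.2 in Taxinine, over the 9 of 10 that were measured. The 4 listed basophil markers summed to 3935 to 4046 CPM in Control and 4542 to 4806 in the activated groups. Of the listed dendritic and T cell markers 0 of 5 each were measured. The part of these marker levels in the results was not tested. In bulk RNA, fewer cells of a type and less RNA per cell cannot be told apart. Levels below are CPM after TMM scaling of the totals (trimmed mean of M values), which assumes most genes do not change, and changes are log2 fold changes ± SE from edgeR's quasi-likelihood test, called at an adjusted p under 0.05. The summed markers did not move alike in BSA against Control. Hdc (2.63), Tpsab1 (1.66), Slc18a2, Il1rl1, Tpsb2, Cma1 and Cpa3 were called higher. Ms4a2 (-0.35) and Mrgprb2 (-0.19) were called lower, and the other mast cell markers, with Kit and Fcer1a, were not called. Of the basophil markers, Mcpt8, Prss34 and Cyp11a1 were called higher and Cd200r3 (-0.14) lower. In Taxinine against BSA, the mast cell markers Gata2 (-0.16) and Mitf (-0.19), Mcpt8 (-0.35) and the macrophage marker Lyz2 (-0.52) were called lower. No other measured marker was called there.

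Per unit of transcript length, Mcl1 was the most abundant of the 8 genes in untreated cells. On the TPM scale, which divides counts by exon length and then sets all libraries to 1 common sum, Mcl1 lay at 448.5 to 470 in the Control libraries and Bax at 167.6 to 181.2. Bcl2 followed at 62.4 to 74.6, Bid at 58.6 to 59.2 and Bak1 at 50.9 to 60.4, and Bid and Bak1 overlapped. Bcl2l1 at 41.7 to 48.3 and Bmf at 41.4 to 43.2 overlapped too, and Bcl2l11 was lowest at 24.5 to 28.9. After antigen the lower end of this order was different: Bcl2l11 at 32.1 to 35.3 TPM lay above Bcl2l1 at 29.5 to 31.2, and Bmf was lowest at 19.5 to 19.8. In Taxinine, Bcl2l11 lay at 36.0 to 40.1, Bcl2l1 at 22.9 to 25.3 and Bmf at 16.1 to 19.3. Exon lengths pool all annotated transcripts of a gene, 8029 bases for Bcl2l11, so the levels of genes with long unused exons come out low.

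After antibody and antigen, Mcl1 and Bcl2l11 were higher and Bmf, Bcl2l1 and Bid lower than in Control. The effector genes gave 0.15 (Bax) and -0.07 (Bak1) on the log2 scale. In BSA against Control, 3 of the 8 genes were called higher and 3 lower. Over all 15109 genes, 16.2% were called higher and 17.8% lower, and 34.0% were called in either direction, against 6 of the 8 here. The groups did not overlap for 6 of the 8 genes and for 42.9% of all genes. The median absolute log2 change was 0.28 over the 8 genes and 0.22 over all genes. Taxinine before antigen lowered Bcl2l1 and Bcl2 relative to antigen alone and Mcl1 gave -0.04 ± 0.04 there.

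**Figure D1:**
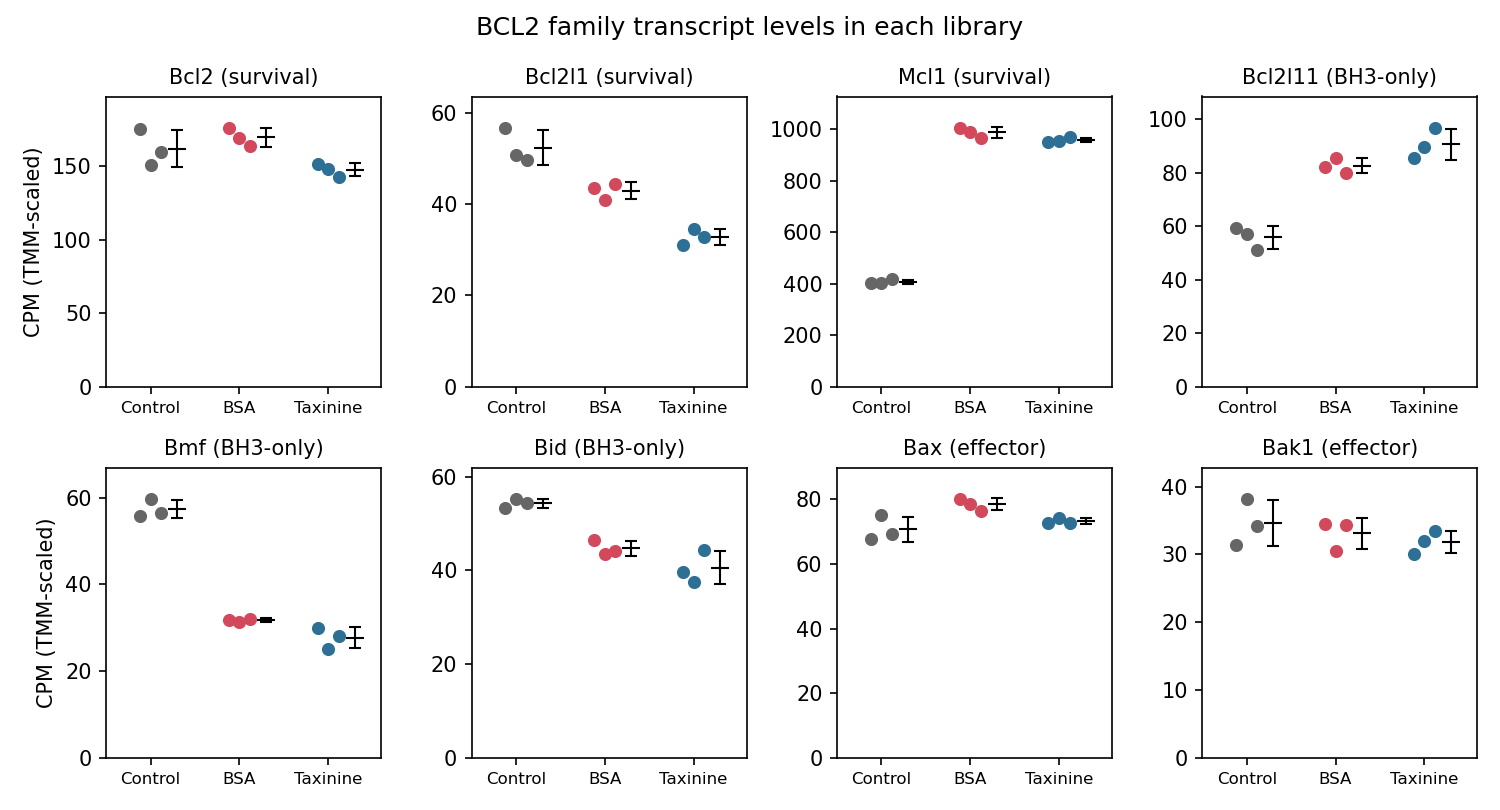
Level of each of the 8 genes in every library, as CPM on TMM-scaled totals, with a linear axis from 0. Points are libraries, and the bar beside them is the mean and standard deviation of 3. Mcl1 lies between 401 and 417 in Control and between 951 and 1006 in the 6 activated libraries, and Bcl2l1 steps down from Control to BSA to Taxinine.

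Mcl1 (GRCm38 chromosome 3, 95658788 to 95663176, plus strand) encodes the short-lived survival protein MCL1, which restrains BAK and binds BIM and NOXA. The 250 bases before its start site (chr3:95658471-95658720, plus strand, RefSeq, GRCm38.p6) are shown because this was the member with the largest change. They hold no match to any of 6 searched motifs, so the sequence has no capitals.
Mcl1: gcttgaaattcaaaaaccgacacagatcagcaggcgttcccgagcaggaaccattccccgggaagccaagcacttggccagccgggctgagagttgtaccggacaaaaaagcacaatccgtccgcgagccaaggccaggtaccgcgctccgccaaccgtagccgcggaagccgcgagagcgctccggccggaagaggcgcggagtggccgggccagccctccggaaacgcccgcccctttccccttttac
Mcl1 stood at 401, 403 and 417 CPM in Control replicates 1 to 3, at 1006, 990 and 966 in BSA, with 951, 955 and 968 in Taxinine. All 6 activated libraries lay far above the highest Control library, and BSA and Taxinine overlapped. The rise with antigen was 1.28 ± 0.04 on the log2 scale, or 2.43-fold (edgeR's quasi-likelihood test, adjusted p = 5.88e-29), larger in size than the change of 93.8% of all genes. Taxinine pretreatment changed it by -0.04 ± 0.04, with a 95% interval from -0.12 to 0.03 (edgeR, adjusted p = 0.581).

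Bcl2l1 (chromosome 2, 152780668 to 152831728, minus strand) encodes BCL-XL, a survival protein of long half-life. Bcl2l1 was at 56.8, 50.8 and 49.7 CPM in Control, 43.6, 40.9 and 44.5 in BSA, with 31.0, 34.5 and 32.7 in Taxinine. None of the 3 groups overlapped with another, and each Taxinine library lay below every BSA library. Antigen lowered it by -0.29 ± 0.06 (edgeR, adjusted p = 3.46e-04), and taxinine lowered it further, by -0.39 ± 0.07 against antigen alone (edgeR, adjusted p = 2.17e-04). Against Control the Taxinine libraries were lower by -0.68 ± 0.07, which is 0.626 of the Control level. The gene count pools the long form with the short, death-promoting splice form known from human cells.
RefSeq lists 3 start sites for Bcl2l1, and the 250 bases before one of them (chr2:152830718-152830967, minus strand, GRCm38.p6) are shown because they hold a match to the NF-kB consensus, in capitals.
Bcl2l1: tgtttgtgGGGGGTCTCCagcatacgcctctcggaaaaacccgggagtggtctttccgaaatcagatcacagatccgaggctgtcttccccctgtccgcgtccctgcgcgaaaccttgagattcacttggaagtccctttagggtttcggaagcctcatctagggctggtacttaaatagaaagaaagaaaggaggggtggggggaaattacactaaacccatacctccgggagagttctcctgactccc

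Bcl2 (chromosome 1, 106538178 to 106714274, minus strand), the founding survival gene of the family, was at 175, 150 and 159 CPM in Control, 176, 169 and 163 in BSA, with 152, 148 and 143 in Taxinine. Control overlapped with both other groups, and Taxinine lay below BSA in every library. The exons of Bcl2 share 558 bases with those of the antisense gene D630008O14Rik on the opposite strand. Bcl2 fell by 0.20 ± 0.05 with taxinine against antigen alone (edgeR, adjusted p = 0.00814). Without BSA replicate 1 or Taxinine replicate 3 this call was lost (-0.17 and -0.18; edgeR, adjusted p = 0.0635 and 0.0780). Antigen alone gave 0.07 ± 0.05 (edgeR, adjusted p = 0.311), and without Control replicate 1 it gave 0.13 with a call (adjusted p = 0.0426). Taxinine against Control gave -0.13 ± 0.05 (edgeR, adjusted p = 0.0360), and this call was lost without Control replicate 1 (-0.07; adjusted p = 0.319), Control replicate 3 (-0.14; 0.0626), Taxinine replicate 2 (-0.14; 0.0876) or Taxinine replicate 3 (-0.11; 0.174), and with DESeq2 (-0.13; 0.0837).

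Among the sensors, Bcl2l11 and Bmf moved in opposite directions. Bcl2l11 (chromosome 2, 128126038 to 128162547, plus strand) encodes BIM, a BH3-only protein that binds every survival protein of the family. It was at 59.4, 57.1 and 51.0 CPM in Control, 82.3, 85.5 and 80.0 in BSA, with 85.4, 89.6 and 96.9 in Taxinine. Every activated library lay above every Control library. Antigen raised it by 0.57 ± 0.06, or 1.48-fold (edgeR, adjusted p = 1.12e-10). The further 0.14 ± 0.06 with taxinine missed the threshold (edgeR, adjusted p = 0.159; 95% interval 0.02 to 0.26), and BSA and Taxinine overlapped by 1 pair of libraries. The splice forms of BIM, which differ in potency, are pooled in the count. The 250 bases before the upstream start site of Bcl2l11 (chr2:128125788-128126037, plus strand, GRCm38.p6) are shown with the match to the FOXO motif in capitals, because FOXO factors are known regulators of this gene.
Bcl2l11: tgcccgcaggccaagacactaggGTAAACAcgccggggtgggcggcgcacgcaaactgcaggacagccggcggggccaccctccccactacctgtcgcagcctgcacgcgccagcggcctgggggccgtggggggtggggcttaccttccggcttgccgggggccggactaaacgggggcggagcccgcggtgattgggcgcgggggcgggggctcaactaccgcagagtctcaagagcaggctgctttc

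Bmf (chromosome 2, 118528757 to 118549687, minus strand) encodes a BH3-only protein tied to the actin motor and released on stress. It was at 55.7, 59.7 and 56.5 CPM in Control, 31.8, 31.4 and 32.1 in BSA, with 29.9, 25.1 and 28.2 in Taxinine. Control lay far above both activated groups, and the 3 BSA libraries were within 1 CPM of each other. Antigen lowered it by -0.85 ± 0.06, to 0.554 of the Control level (edgeR, adjusted p = 9.90e-15). Taxinine against antigen alone gave -0.20 ± 0.08 without overlap of the groups, but the adjusted p was 0.105 by edgeR. Taxinine against Control gave -1.05 ± 0.07 (edgeR, adjusted p = 5.27e-17). The 250 bases before the most upstream of its 3 start sites (chr2:118549687-118549936, minus strand, GRCm38.p6), the member with the largest fall, hold no searched motif.
Bmf: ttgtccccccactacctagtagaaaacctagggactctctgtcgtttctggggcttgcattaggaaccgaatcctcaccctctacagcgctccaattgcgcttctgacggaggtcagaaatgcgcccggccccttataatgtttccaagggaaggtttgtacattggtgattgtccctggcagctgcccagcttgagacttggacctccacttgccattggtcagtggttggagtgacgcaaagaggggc

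In all, 13 windows of 300 bases (250 before and 50 after a RefSeq start site) were searched on both strands for 6 motifs, chosen with the members' values known: AP-1 (TGANTCA), CRE (TGACGTCA), EGR (GCGTGGG), FOXO (GTAAACA), the NF-kB consensus and the SRF CArG box. No matches overlapped, and 3 of the 13 windows held a match. Besides those of Bcl2l1 and Bcl2l11, 1 further NF-kB consensus match lay at another start site of Bmf. Of 32544 promoter windows of all genes, the NF-kB consensus was in 4.53%, AP-1 in 7.79%, EGR in 5.08%, FOXO in 3.66%, CRE in 1.8% and the CArG box in 1.64%. A match describes letters in a window and shows no binding.

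Bid (chromosome 6, 120891930 to 120916853, minus strand) encodes the sensor that caspase 8 cleaves to link death receptors to mitochondria. It was at 53.3, 55.3 and 54.4 CPM in Control, 46.5, 43.6 and 44.1 in BSA, with 39.7, 37.6 and 44.4 in Taxinine. Both activated groups lay below Control, and Taxinine overlapped BSA through replicate 3. Antigen lowered it by -0.28 ± 0.06 (edgeR, adjusted p = 3.29e-04), and taxinine against antigen alone gave -0.13 ± 0.07 (edgeR, adjusted p = 0.262). The exons of Bid share 628 bases with those of Bcl2l13 on the opposite strand. The strand setting of the count is not given in the sources used here, so reads in these bases could belong to either gene, and Bcl2l13 was called in the other direction with TMM scaling.

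Of the effectors, Bax (chromosome 7, 45461697 to 45466898, minus strand) was at 67.7, 75.1 and 69.3 CPM in Control, 80.2, 78.6 and 76.5 in BSA, with 72.8, 74.2 and 72.8 in Taxinine. BSA lay just above both other groups, and Taxinine lay inside the range of Control. Taxinine against antigen alone gave -0.10 ± 0.06 (edgeR, adjusted p = 0.325). The rise with antigen was 0.15 ± 0.05 (edgeR, adjusted p = 0.0251). This call was lost when Control replicate 1 (0.12; adjusted p = 0.119), Control replicate 3 (0.14; 0.0999), BSA replicate 1 (0.13; 0.0918) or BSA replicate 2 (0.15; 0.0536) was left out, and the sign turned under total count scaling (-0.077; 0.234). The exons of Bax share 192 bases with those of Gm45808 on the same strand, so strand cannot assign reads in these bases. Bak1 (chromosome 17, 27019810 to 27029009, minus strand) was at 31.4, 38.2 and 34.2 CPM in Control, 34.5, 30.5 and 34.3 in BSA, with 30.1, 32.0 and 33.4 in Taxinine. All 3 groups overlapped. Bak1 gave -0.07 ± 0.07 with antigen, with a 95% interval from -0.21 to 0.08, and -0.05 ± 0.08 with taxinine, from -0.21 to 0.11 (neither called by edgeR; adjusted p = 0.553 for antigen). Without Control replicate 2 the antigen value was 0.012. Its exons share bases with Ggnbp1 on the opposite strand, which had 361 counts over all libraries against 3853 for Bak1.

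In Taxinine against BSA, 2 of the 8 genes, Bcl2 and Bcl2l1, were called lower and 0 higher by edgeR. Over all genes 4.12% were called lower and 2.86% higher, 6.98% in all, from 1055 genes called. Without Taxinine replicate 1, 2 or 3 the genes called fell to 659, 616 and 699. The groups did not overlap for 4 of the 8 genes and for 23.9% of all genes. At an unadjusted p under 0.05, 3 members were lower and 1, Bcl2l11, was higher, and DESeq2 and limma on the deposited values each called 2 lower and 0 higher. In Taxinine against Control, which shares libraries with both other comparisons, 2 of the 8 genes were higher (Mcl1 and Bcl2l11) and 4 lower (Bcl2, Bcl2l1, Bmf and Bid). The background there was 15.9% higher and 17.2% lower, 33.1% in all, and the groups did not overlap for 5 of the 8 genes and for 43.7% of all genes.

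**Figure D2:**
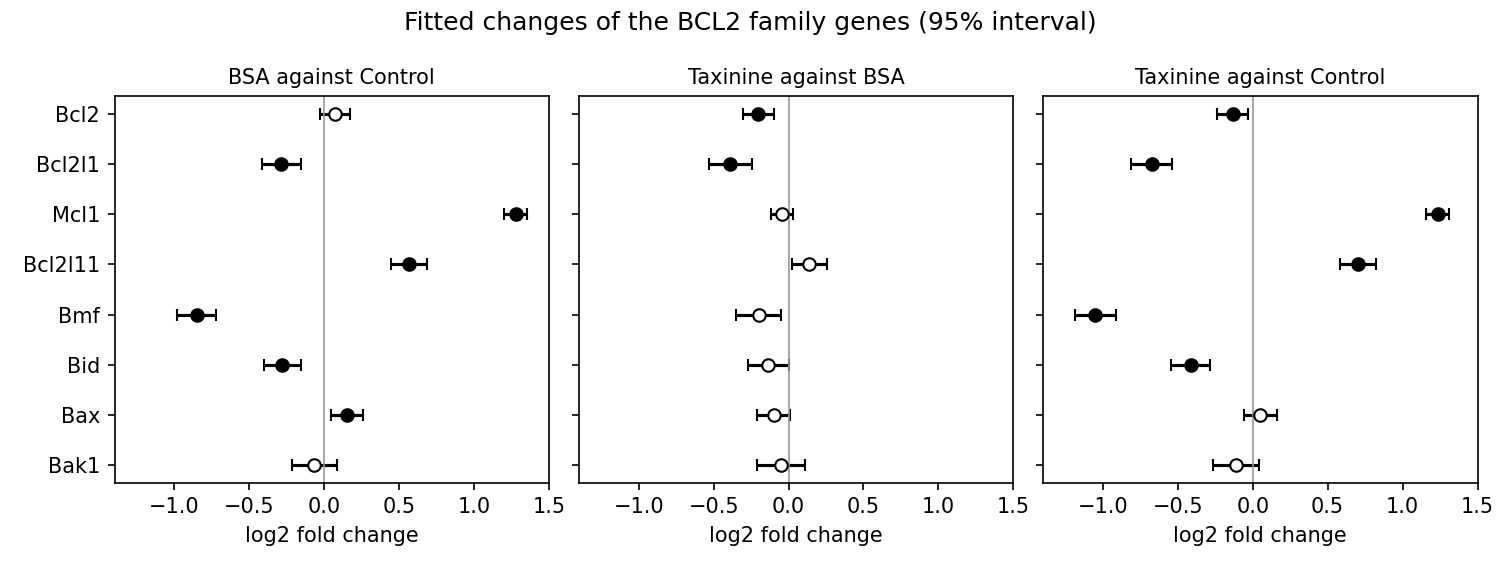
Fitted log2 fold change of each gene with its 95% interval in the 3 comparisons. Filled points passed an adjusted p under 0.05 in edgeR's quasi-likelihood test, and open points did not. With antigen Mcl1 lies at 1.28 and Bmf at -0.85, and with taxinine against antigen alone Bcl2l1 lies at -0.39 and Bcl2 at -0.20.

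The direction of the small changes rested on the scaling. With total counts in place of TMM, the median log2 change of all genes in BSA against Control was -0.23 instead of near 0, and 13.6% of the called genes were higher instead of 47.6%. Under it 7977 of all 15109 genes were called, and of the 8 genes 2 were called higher and 5 lower. Mcl1 (1.05), Bcl2l11 (0.34), Bcl2l1 (-0.51), Bid (-0.51) and Bmf (-1.08) kept direction and call, with values moved by about the shift of all genes, while Bcl2 turned to -0.16 (adjusted p = 0.00639) and Bak1 was called at -0.29 (adjusted p = 9.07e-04). In Taxinine against Control the same scaling called 2 higher and 6 lower, with Bax at -0.15 (adjusted p = 0.0209) and Bak1 at -0.32 (adjusted p = 5.99e-04). In Taxinine against BSA that median was 0.03, and the members' calls were the same in number.

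**Figure D3:**
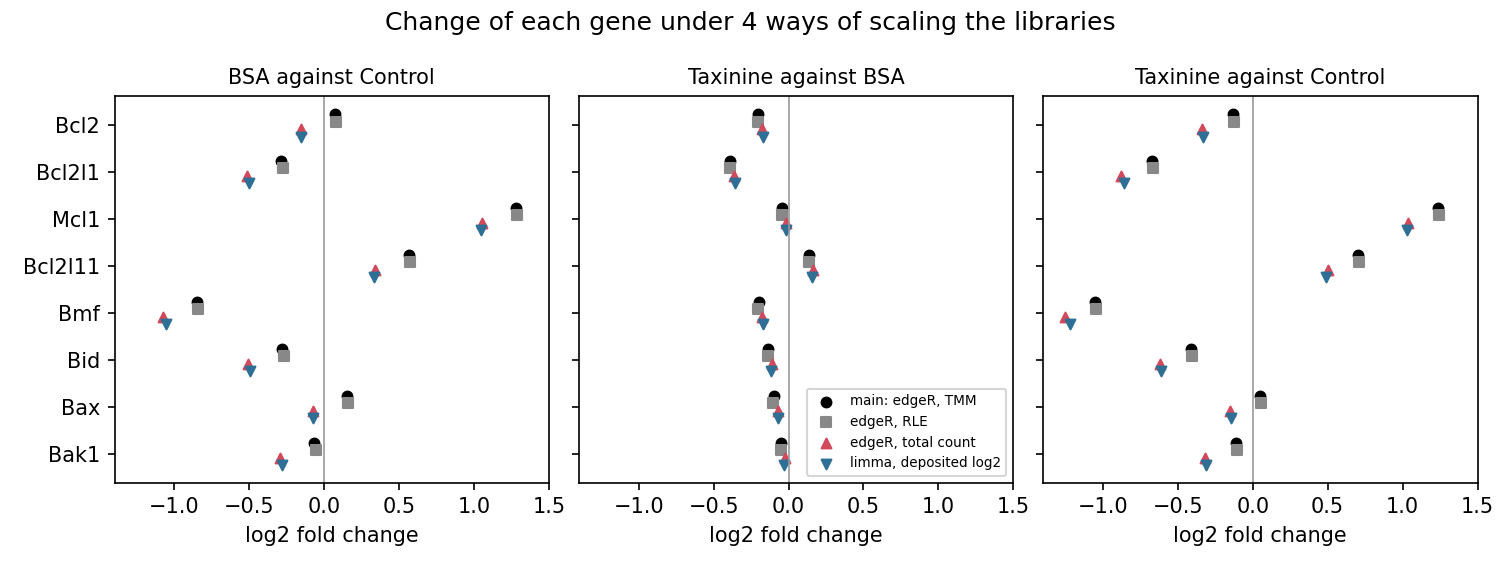
Log2 fold change of each gene in the 3 comparisons under TMM scaling, RLE size factors, scaling by total count, and limma on the deposited log2 values. In BSA against Control the last pair of settings lies lower for every gene, so that Bcl2 and Bax cross 0 and Mcl1 and Bmf do not.

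Ratios of counts within a library do not depend on the scaling between libraries. Mcl1 had 2.29, 2.68 and 2.62 times the counts of Bcl2 in Control, 5.71, 5.87 and 5.92 times in BSA, with 6.27, 6.46 and 6.78 times in Taxinine. The ratio of Mcl1 to Bcl2l1 was 7.80 ± 0.673 in Control, 23.0 ± 1.23 in BSA and 29.3 ± 1.52 in Taxinine (mean ± SD, n = 3). In both ratios the 3 groups did not overlap. The ratio of Bax to Bak1 was 1.96 to 2.16 in Control, 2.23 to 2.58 in BSA and 2.18 to 2.42 in Taxinine, and the latter pair of groups overlapped. The ratio of Mcl1 to Bcl2l11 was 6.75 to 8.18 in Control, 11.6 to 12.2 in BSA and 10.6 ± 0.573 (SD, n = 3) in Taxinine, with each Taxinine library between the 2 other groups. The ratio of Bcl2l11 to Bmf was 0.903 to 1.07 in Control, 2.49 to 2.73 in BSA and 2.86 to 3.57 in Taxinine. These ratios compare counts that are not divided by transcript length, so their change between groups can be read, not their absolute size.

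**Figure D4:**
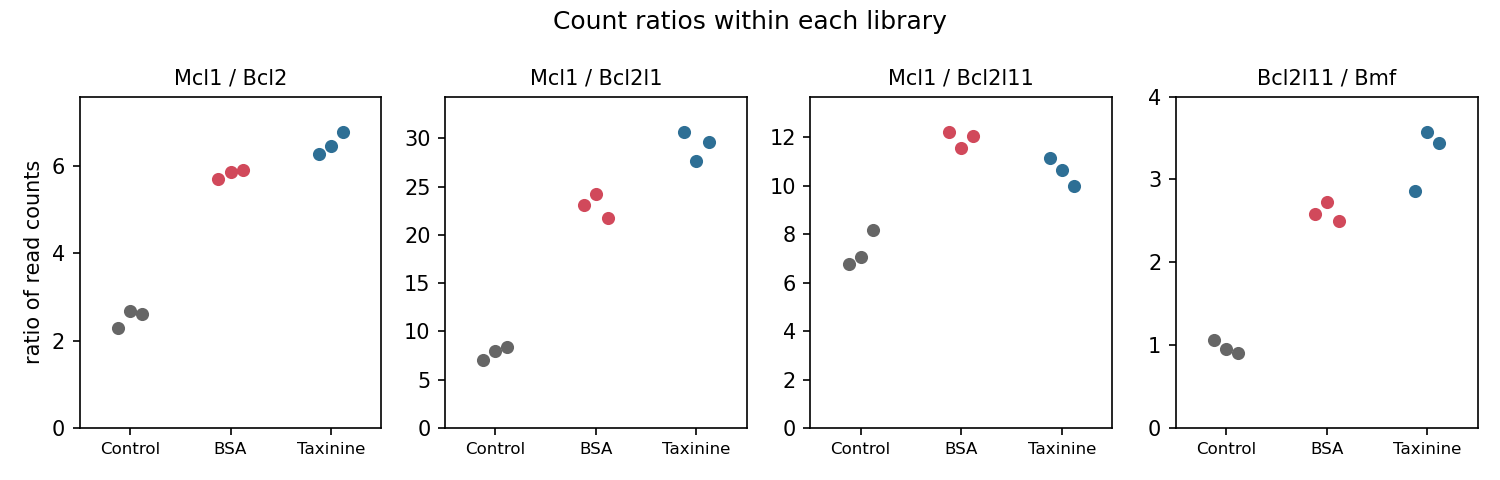
Ratio of read counts of pairs of genes within each library, 1 point per library, on a linear axis from 0. The 3 groups are separate in each of these panels, which leave out the ratio of Bax to Bak1, and Mcl1 over Bcl2l1 lies at 7.07 to 8.40 in Control, 21.7 to 24.2 in BSA and 27.7 to 30.7 in Taxinine.

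The genes whose pattern over the 9 libraries was most like that of Mcl1, the member with the widest range of group means, were Nr4a1, Nr4a3, Pdcd4, Serpina3f and Klf6. They were taken from 1330 genes whose group means ranged over at least 1 on the log2 scale, and their Pearson correlations with Mcl1 on log2 CPM all rounded to 0.999. The libraries fall into Control and activated clusters, so these values mostly reflect a step between Control and the other libraries.

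Beyond the 8 genes, a list of 16 other family genes had 10 measured. With antigen 2 were called higher, Pmaip1 and Bcl2l13, and 4 lower, Bcl2l2, Bnip3l, Bbc3 and Bcl2l12, with a median of -0.17 beside a median near 0 for all genes, of which 16.2% were called higher and 17.8% lower. Total count scaling gave 1 higher and 6 lower, and it called 7977 of all 15109 genes, 13.6% of them higher. Against antigen alone, taxinine gave 2 higher (Pmaip1 and Bnip3l) and 0 lower by edgeR, DESeq2 and limma alike, with 0 lower also at an unadjusted p under 0.05. Those 2 of 10 stand beside 2.86% of all genes called higher. Taxinine against Control gave 2 higher and 3 lower, beside 15.9% and 17.2% of all genes. Total count scaling gave 1 and 6, and 15.0% of all genes it called were higher. Pmaip1, which encodes NOXA, the BH3-only protein that binds MCL1 and marks it for breakdown, was at 56.5, 56.9 and 59.2 CPM in Control, 162, 150 and 137 in BSA, with 183, 173 and 184 in Taxinine. The 3 groups did not overlap. Pmaip1 rose by 1.38 ± 0.05 with antigen (edgeR, adjusted p = 1.33e-24) and by a further 0.27 ± 0.05 with taxinine (edgeR, adjusted p = 3.69e-04), and the rises were 1.15 and 0.29 under total count scaling.

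Bcl2l2, the gene for the survival protein BCL-W, fell from 33.1 ± 1.95 to 25.4 ± 0.427 CPM with antigen (-0.38 ± 0.07; edgeR, adjusted p = 4.50e-05) and gave -0.12 ± 0.08 with taxinine against antigen alone (edgeR, adjusted p = 0.426). Bbc3, the gene for PUMA, a BH3-only target of p53, fell from 73.2 ± 8.02 to 61.6 ± 8.56 CPM. The groups overlapped at the edge. That change was -0.25 ± 0.07 (edgeR, adjusted p = 0.00384), and leaving out BSA replicate 1 or Control replicate 2 lost the call (-0.14 and -0.16; adjusted p = 0.135 and 0.0679). Bcl2l12 (-0.53 ± 0.21; edgeR, adjusted p = 0.0453) had 19 to 60 counts per library. Its call was lost in 5 of the 9 fits without 1 library (Control replicate 2 or 3, or any BSA replicate), with adjusted p from 0.0636 to 0.192, and with DESeq2 (adjusted p = 0.158). A replicate term and a fit of the 2 compared groups alone lost it too (edgeR, adjusted p = 0.0519 and 0.0505). Bnip3l, a mitophagy receptor, fell by 0.22 ± 0.05 with antigen and rose by 0.18 ± 0.05 with taxinine against antigen alone (edgeR, adjusted p = 2.81e-04 and 0.0138), to 133 ± 0.676 CPM beside 136 ± 5.70 in Control. Its rise with taxinine lost the call without BSA replicate 3, Taxinine replicate 2 or Taxinine replicate 3 (adjusted p = 0.0524, 0.0591 and 0.0660). Under total count scaling the antigen changes of Bcl2l2, Bbc3 and Bnip3l were -0.61, -0.48 and -0.44. Bcl2l13, which encodes a mitochondrial protein of the family, rose by 0.29 ± 0.06 with antigen (edgeR, adjusted p = 9.17e-05), and gave 0.06 under total count scaling (adjusted p = 0.394). Bad, Bnip3, Bik and Bcl2l15 did not pass the test in BSA against Control with TMM scaling (-0.12 ± 0.10, -0.03 ± 0.07, -0.25 ± 0.29 and 1.38 ± 0.83), and Bcl2l15 had at most 5 counts in any library.

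**Figure D5:**
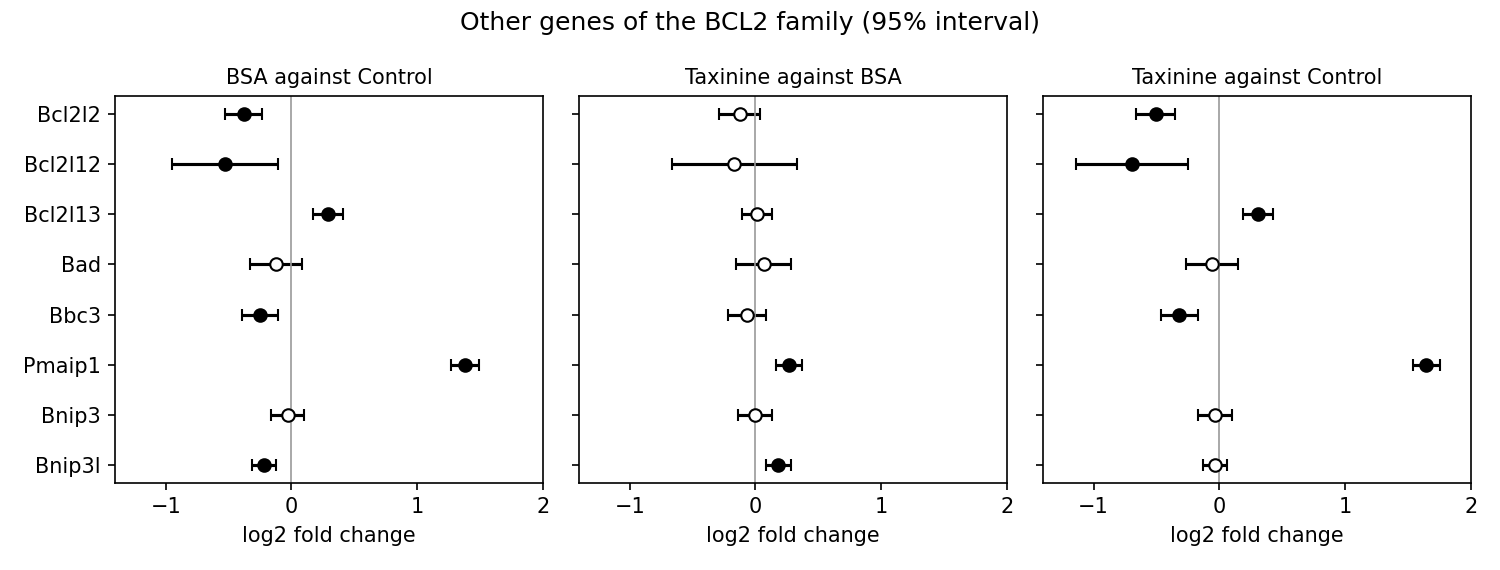
Log2 fold change with its 95% interval for 8 other family genes in the 3 comparisons, without the thinly counted Bik and Bcl2l15. Filled points passed an adjusted p under 0.05 by edgeR. Pmaip1 lies at 1.38 with antigen, at 0.27 with taxinine against antigen alone and at 1.65 with both against Control.

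A list of 26 genes covered caspases, the apoptosome and inhibitor of apoptosis proteins, not all of which act after the mitochondrial step. Among these genes 3 were higher and 7 lower in BSA against Control, with a median of -0.01. Over all genes 34.0% were called, 16.2% higher and 17.8% lower, so these counts lie near the background. Total count scaling gave 2 higher and 17 lower, and it called 7977 of all 15109 genes, 13.6% of them higher. Cycs, which encodes cytochrome c, rose by 0.43 ± 0.07, and by 0.20 under total count scaling (adjusted p = 0.0116). Casp9, the caspase of the apoptosome, fell by 0.54 ± 0.07 and Casp2 by 0.67 ± 0.06 (edgeR, adjusted p from 2.79e-13 to 1.77e-06 for these 3). Taxinine against antigen alone gave 0 calls among the 26 by edgeR, and also by DESeq2 and limma. At an unadjusted p under 0.05 there were 3 higher and 2 lower. Taxinine against Control gave 4 higher and 6 lower, beside 15.9% and 17.2% of all genes. Total count scaling gave 1 and 16, and 15.0% of all genes it called were higher.

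In the death receptor list, 2 of 10 genes were higher and 3 lower with antigen, beside 16.2% and 17.8% of all genes. Under total count scaling 0 were higher and 7 lower, where 7977 of all 15109 genes were called, 13.6% of them higher. Cflar, which encodes the caspase 8 inhibitor FLIP, rose by 0.32 ± 0.05 and Ripk1 by 0.26 ± 0.06, and neither passed the test under total count scaling (0.09 and 0.04). Tnfsf10, the death ligand TRAIL, fell by 0.33 ± 0.06 and the adaptor gene Tradd by 0.38 ± 0.10, which were -0.56 and -0.61 under total count scaling. Taxinine lowered Tnfsf10 by 0.22 ± 0.07 against antigen alone (edgeR, adjusted p = 0.0393), where 6.98% of all genes were called. This call was lost without any 1 Taxinine replicate, without BSA replicate 2 or 3 and without Control replicate 3, with adjusted p from 0.0544 to 0.131. It was also lost with total count scaling (-0.19; adjusted p = 0.0752) and with DESeq2 (-0.22; adjusted p = 0.0737). Taxinine against Control gave 2 higher and 3 lower of the 10, beside 15.9% and 17.2% of all genes. Total count scaling gave 1 and 6, and 15.0% of all genes it called were higher.

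Of 22 measured regulators of BCL2 family genes or proteins, 11 were higher and 3 lower with antigen, beside 16.2% and 17.8% of all genes. Total count scaling turned the balance to 6 and 12, with 7977 of all 15109 genes called, 13.6% of them higher. Taxinine against Control gave 10 higher and 6 lower, beside 15.9% and 17.2% of all genes. Total count scaling gave 8 and 11, and 15.0% of all genes it called were higher. The NF-kB subunit genes Rel (1.22 ± 0.04) and Nfkb1 (0.84 ± 0.04), the stress factor gene Atf4 (0.67 ± 0.04) and the 14-3-3 gene Ywhaz (0.47 ± 0.04), whose protein holds BAD in the cytosol, rose (edgeR, adjusted p from 3.81e-26 to 1.79e-13). Under total count scaling Atf4 was at 0.45 and Ywhaz at 0.24, both still called. In Taxinine against BSA 2 of the 22 were called higher and 2 lower, beside 2.86% and 4.12% of all genes. Against antigen alone, taxinine raised Dynll1, the dynein light chain that holds BIM, by 0.29 ± 0.07, and Ddit3, the stress factor CHOP, by 0.24 ± 0.05. It lowered Nfkb1 by 0.15 ± 0.04 and Mitf by 0.19 ± 0.06 (edgeR, adjusted p from 0.00287 to 0.0373 for these 4). Each of the 4 calls was lost in at least 1 fit without 1 library: Dynll1 without Taxinine replicate 3 (adjusted p = 0.0631), Nfkb1 without Taxinine replicate 2 or 3 (0.0597 and 0.0747), and Ddit3 without BSA replicate 1 or Taxinine replicate 3 (0.0584 and 0.0556). Mitf lost it without any 1 Taxinine replicate, without BSA replicate 1 and without Control replicate 3 (from 0.0502 to 0.269). Mitf also lost it under total count scaling, DESeq2 and limma (adjusted p = 0.0778, 0.0561 and 0.0680).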

How the data were processed

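Stranded libraries of polyadenylated RNA were sequenced from both ends, with 101 bases per read, per the labels' protocols. The submitters' processing notes name STAR 2.7.0f, limma 3.11 and the builds mm10 and GRCm38. How reads were counted, on which annotation and with which strand setting, is not given in the sources used here. A deposited table of whole-number counts carries a name that speaks of TMM normalisation. Its totals differ between libraries, and the deposited log2 values equal log2 of CPM plus 1 computed from it with plain totals, to within 5.0e-05, so the counts were used as unscaled.

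edgeR 4.0.16 (R 4.3.3) was run on the counts of all 15109 genes and 9 libraries without a further filter, with TMM factors, the quasi-likelihood test and Benjamini-Hochberg adjustment over all genes. SE was taken from the fold change and the F statistic. Alternatives were total count and RLE scaling, DESeq2 1.42.0, limma 3.58.1 on the deposited log2 values, a low-count filter, a replicate term, fits of 2 groups and fits without 1 library. The edgeR, DESeq2 and limma fits were tested on simulated data with 200 genes changed in the BSA group, as many raised as lowered. That simulation held no general shift between groups, so it could not test the choice of scaling. Exon lengths and coordinates came from GENCODE M21 (GRCm38), which lists 15106 of the genes, and promoters from RefSeq (GRCm38.p6). The members, gene lists and motifs were chosen with earlier results of these data known. The text names all members, all other measured family genes, and up to 4 genes with the smallest p per further list and comparison. A gene that this rule names is not reported here. For Taxinine against Control the text gives TMM values of Bcl2, Bcl2l1, Bmf and Pmaip1, calls of the members and counts of the lists. Bax and Bak1 have values there under total count scaling. The labels name no molecular identifiers. Whether duplicate reads were removed before counting is not given in the sources used here, and no correction for them was made on the counts.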

Additional observations from a re-analysis of the deposited data

How the results depend on the processing

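Over 16 alternatives each, 361 of the 384 values of the 8 genes in the 3 comparisons kept their direction and their side of the threshold, 11 lost and 5 gained a call, and 7 changed sign. For Mcl1, Bcl2l11, Bmf, Bcl2l1 and Bid each of these values was kept. Under total count scaling, and under limma, whose deposited input is scaled by total count too, 5 members were lower in BSA against Control in each case, beside 3, and the genes called numbered 7977 and 7852, beside 5144. The sign changed with these settings for Bcl2 (-0.16 in each) and Bax (-0.077 and -0.076) in BSA against Control, and for Bax in Taxinine against Control (-0.15 in each). When 1 library was left out, Bak1 in BSA against Control ranged from -0.13, without Control replicate 1, to 0.012, without Control replicate 2. In Taxinine against BSA the members lower ranged from 1 to 2 when 1 library was left out, and the genes called from 616 to 1281 (main value 1055), with 659, 616 and 699 without Taxinine replicates 1, 2 and 3. In that comparison limma gave 710 higher genes, beside 432. Samples with the same replicate number did not deviate together (correlations from -0.11 to 0.09), so the numbers were not taken as pairs. With the replicate block the members' calls were 3 higher and 3 lower, 0 and 2, and 2 and 4 in the 3 comparisons, no different in number, and the genes called were 5078, 1093 and 4972. The planned sum of Bcl2a1 copies was not run. The members had 258 counts or more in each library, and fits at equal depth were not run.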
